A study of Felis catus with 6 samples.

Results

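Transcript levels of 45 genes that encode collagens, laminins and other proteins of the extracellular matrix were described in lesions and healthy oral mucosa of cats with feline chronic gingivostomatitis (FCGS). The genes were chosen by symbol (collagens, laminins, nidogens, fibrillins, fibulins, thrombospondins, tenascins, small leucine-rich proteoglycans, hyaluronan synthases and the enzymes that modify collagen) from a list of genes that the study selected on a difference of at least 2-fold between lesions and healthy mucosa. They are 45 of 1929 genes that could be given a name, among 21529 Ensembl identifiers in the files. COL17A1, LAMB4 and THBS4 were excepted from the choice. Because the lesion against healthy contrast chose the genes, their differences along it are given as a description, with no test.

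The 6 libraries, 3 of lesions and 3 of adjacent healthy oral mucosa, came from 3 edentulous cats with FCGS, which the labels name Bart, Jerome and Sadie. FCGS is a chronic, immune-mediated and ulcerative inflammation of the oral mucosa. Each cat gave 1 lesion and 1 healthy biopsy, so the healthy samples are unaffected sites of diseased cats and not the mucosa of healthy cats. All cats of the study received buprenorphine and none an immunosuppressive drug or an antibiotic when tissue was taken, and the age and sex of these 3 cats were not stated. The labels call the tissue gingival, whereas the study's text states that biopsies were taken beside the palatoglossal folds. It reports inflammation there and in the buccal mucosa, with some at the gingiva. Levels are in FPKM, fragments per kilobase of transcript scaled to library size, which allows genes to be compared per length. Log2 differences between tissues are taken within a cat, lesion minus healthy mucosa, with values under 1 FPKM raised to 1. Where only 1 library is left out, the difference is between the means of the remaining lesions and healthy libraries, so it is not within a cat. The values of several libraries are listed in the order Bart, Jerome and Sadie.

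The extracellular matrix of oral mucosa has 2 main forms. Basement membranes are thin sheets of collagen IV, laminin and nidogen that lie under the epithelium and around blood vessels, muscle fibres and nerves. The interstitial matrix of the lamina propria is built of collagen fibrils, microfibrils of collagen VI and fibrillin, proteoglycans and hyaluronan, and is secreted mostly by fibroblasts. Collagen chains are hydroxylated on proline and lysine in the endoplasmic reticulum, assemble as triple helices and are cross-linked outside the cell by lysyl oxidases. The chains of laminin differ between tissues: the alpha-4 chain is typical of vessel walls, and the alpha-3 and beta-3 chains of laminin-332 anchor the basal layer of the epithelium.

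Of the 45 matrix genes, 39 were higher and 6 were lower in lesions. Among all 1929 named genes 1292 were higher and 637 lower. The names did not cover the strongest falls, so a matrix gene lower by more than 5.20-fold could not be among the 6. Over the 39 the median log2 difference was 1.66, against -0.07 over the 13327 identifiers that reached 1 FPKM in 3 or more libraries. Each of the 39 had to reach a log2 difference of 1 to be chosen, so this gap was fixed by the choice. All 45 matrix genes passed this filter. Differences of at least 2-fold, which the choice of genes itself required, were present in 16.9% of all tested identifiers in the higher and in 12.3% in the lower direction. Just inside the limit of 2-fold stood TNXB (1.00) and HAS3 (-1.03), and the nearest identifiers outside it, which carry no name, stood at 0.9995 and -0.9986. The direction was the same in all 3 cats for 36 of the 39 higher and for 4 of the 6 lower genes. It was opposite in 1 cat for COL14A1 (Jerome), SPARCL1 (Sadie), COL23A1 (Bart), HAS3 (Sadie) and LAMB3 (Jerome). A difference of at least 2-fold in every cat was reached by 21 of the 39 and by 1 of the 6 (COL26A1), against 8.81% and 6.81% of all tested identifiers. The choice of genes favours this, so the like comparison is with identifiers past the same limit. Of the 2257 identifiers at least 2-fold higher by mean, 1174 were so in every cat, as were 907 of the 1640 lower ones.

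The size of the difference varied between cats. Among the 39 higher genes it was largest in Bart for 23, in Jerome for 13 and in Sadie for 3, with medians of 2.06, 1.57 and 1.34. The SD of the 3 differences of a gene had a median of 0.66 over the 45 genes, from 0.06 (PLOD3) to 3.18 (LAMB3), against a median of 0.39 over all tested identifiers. The levels of the 2 tissues did not overlap for 18 of the 39 higher and for 4 of the 6 lower genes, shares that stand beside 16.7% and 21.9% of all tested identifiers. Among the 4, COL4A5 was separated only by 1.818 FPKM (healthy mucosa of Sadie) against 1.813 FPKM (lesion of Jerome). With limma and tissue as the only term, 4 of the 45 passed an adjusted p of 0.05 as higher (COL28A1, LOXL3, PLOD1 and PLOD3) and 0 as lower, with 18 and 2 at an unadjusted p under 0.05. Among all tested identifiers 5.31% were called higher and 6.61% lower. With the cat as a block, which takes out the level of each animal, 26 passed as higher and 1 as lower (COL26A1), against 12.2% and 11.1%. Nothing is read from these counts, since the same contrast selected the genes. Without the lesion of Bart, 21 of the 45 were at least 2-fold higher, and without the healthy mucosa of Bart 3 were at least 2-fold lower. Without both libraries of Bart, 28 were at least 2-fold higher and 3 lower, and 20 passed limma as higher with tissue as the only term.

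**Figure D1:**
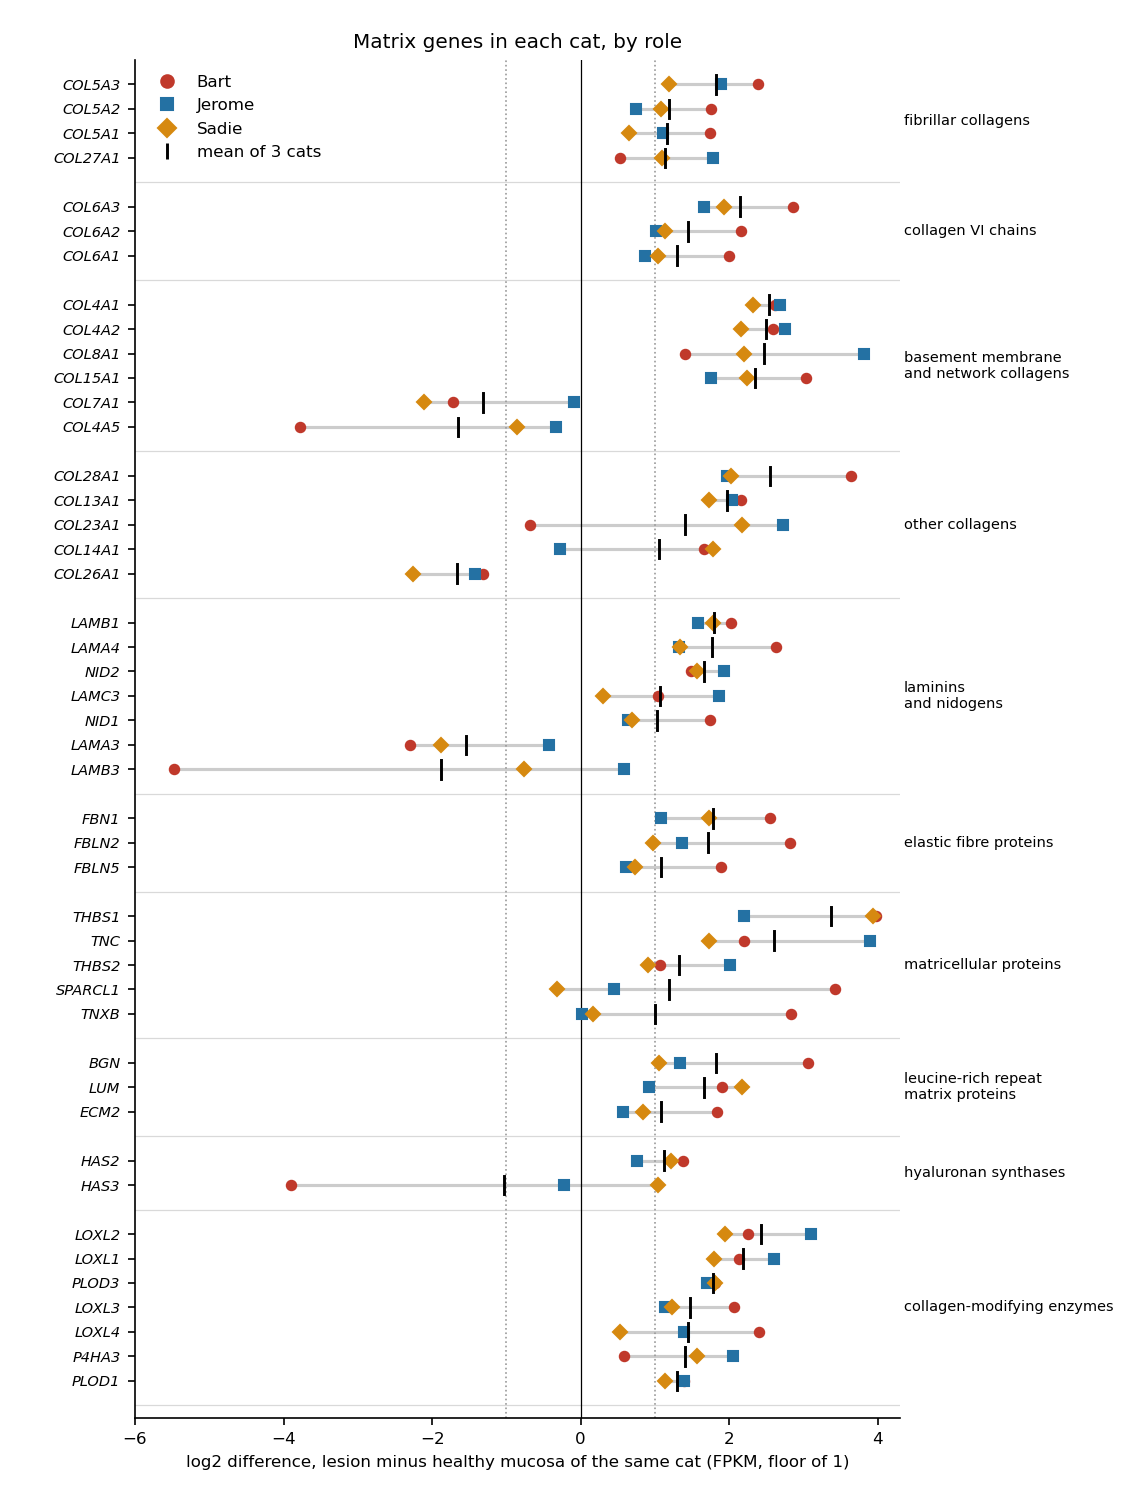
Log2 difference of each matrix gene within a cat, lesion minus healthy mucosa (horizontal axis, FPKM with a floor of 1), with genes grouped by role; the symbols are the 3 cats, the black bar their mean, the grey line their range and the dotted lines 2-fold. The 39 higher genes lie mostly right of the upper dotted line, while LAMB3, HAS3 and COL4A5 spread widely, with Bart far to the left.

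The libraries differed in other tissue markers, and bulk RNA cannot tell fewer cells of a type from less RNA per cell. Medians of the 6 libraries lay within 0.02 of their mean on the log2 scale. Of 14 fibroblast and mural cell markers 8 had a name, and their summed level was 1072, 567 and 901 FPKM in healthy mucosa and 6095, 2232 and 2397 FPKM in lesions. VIM alone held 740, 429 and 565 FPKM of these sums in healthy mucosa and 3448, 1181 and 1467 FPKM in lesions. DES, another of these 8, is also a muscle gene. Of 11 endothelial markers 9 had a name, with sums of 456, 254 and 204 FPKM in healthy mucosa and 2076, 914 and 851 FPKM in lesions. The 39 higher matrix genes summed to 1535, 693 and 745 FPKM in healthy mucosa and to 7771, 1820 and 1806 FPKM in lesions, so all 3 sums were highest in the lesion of Bart. Skeletal muscle markers (6 of 10 named) were at 2.62, 9.98 and 2136 FPKM in healthy mucosa and at 3.55, 4475 and 4069 FPKM in lesions, high in both libraries of Sadie and in the lesion of Jerome. Leukocyte markers (7 of 7 named) summed to 65.7, 214 and 129 FPKM in healthy mucosa and to 451, 856 and 1509 FPKM in lesions. CD79A alone held 151.3, 447.5 and 1114 FPKM of these sums in lesions. The part of any of these in the matrix differences was not tested. Markers carry a name only where the same contrast put them past the 2-fold limit. The sums of named markers therefore do not show how the unnamed markers of a list differed.

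Collagen IV, the network-forming collagen of every basement membrane, was among the most abundant and most evenly higher of the 45 genes. COL4A1, which encodes its alpha-1 chain, was at 112, 23.0 and 21.9 FPKM in healthy mucosa and 686, 148 and 109 FPKM in lesions. COL4A2, the alpha-2 chain, stood at 105, 24.3 and 23.8 FPKM in healthy mucosa and 633, 164 and 106 FPKM in lesions. Both were higher in the lesion of every cat, by 2.62, 2.68 and 2.31 for COL4A1 and 2.59, 2.75 and 2.16 for COL4A2. The mean log2 differences were 2.54 (SD 0.20, n = 3) and 2.50 (SD 0.31, n = 3), or 5.81-fold and 5.66-fold. The healthy mucosa of Bart held slightly more COL4A1 than the lesion of Sadie, and the groups therefore overlapped for COL4A1 and nearly met for COL4A2.

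COL8A1 encodes a short-chain collagen of vessel walls and other subendothelial sheets. It was listed at 19.6, 0.30 and 0.38 FPKM in healthy mucosa and 52.1, 14.0 and 4.58 FPKM in lesions, with differences of 1.41, 3.81 and 2.20. The difference of Jerome and Sadie is measured against the floor of 1 FPKM, because both healthy values lay under it. The healthy mucosa of Bart exceeded the lesions of both other cats. COL15A1, a proteoglycan collagen that links basement membranes to the fibrils below, differed by 3.03, 1.75 and 2.24 (mean 2.34 (SD 0.64, n = 3)) and did not overlap between tissues. COL7A1, which forms the anchoring fibrils under the epithelium, went the other way. Its level was 49.4, 22.8 and 23.8 FPKM in healthy mucosa and 15.0, 21.4 and 5.50 FPKM in lesions, hardly different in Jerome (-0.09) and over 2-fold lower in Bart (-1.72) and Sadie (-2.11).

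**Figure D2:**
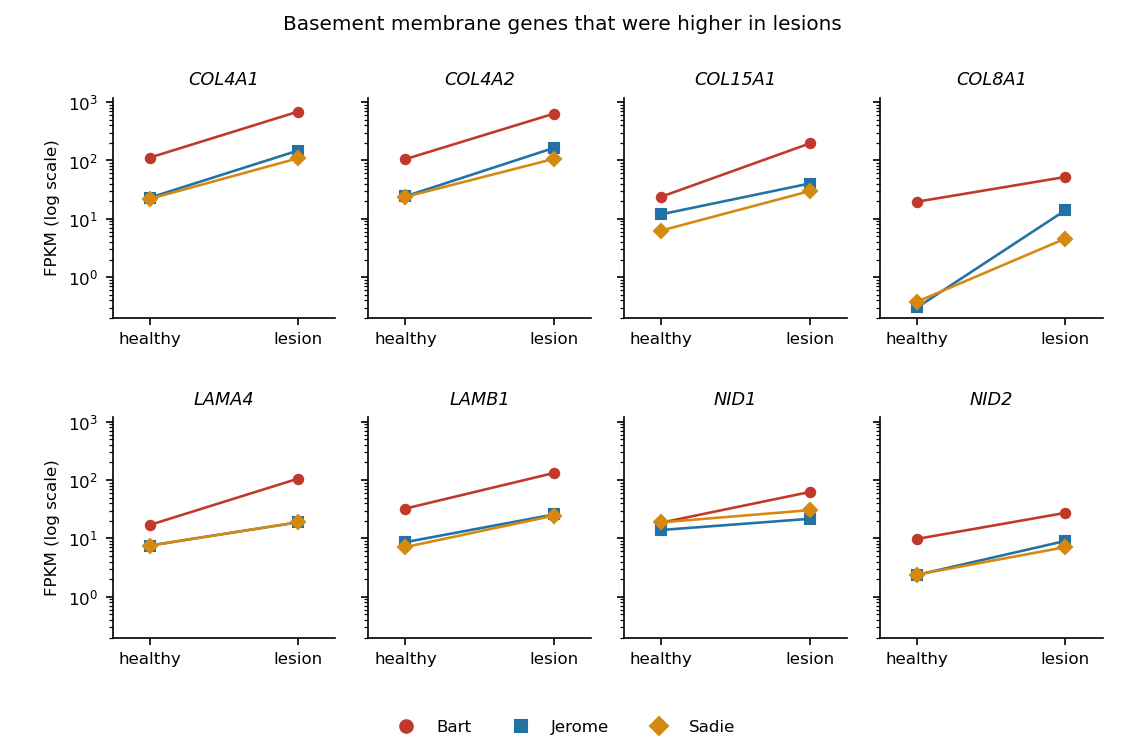
FPKM on a log scale in healthy mucosa and lesion of each cat, joined by lines, for 8 basement membrane genes that were higher in lesions. COL4A1 and COL4A2 show near-parallel lines, with Bart (112 and 105 FPKM in healthy mucosa) starting at about the level the other cats reached in lesions.

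Laminins are trimers of an alpha, a beta and a gamma chain, and nidogens bridge laminin and collagen IV. LAMA4, the alpha-4 chain of vessel walls, was at 17.0, 7.54 and 7.49 FPKM in healthy mucosa and 105, 18.9 and 18.9 FPKM in lesions. Its partner LAMB1 was at 32.4, 8.62 and 7.11 FPKM and 132, 25.7 and 24.5 FPKM. The mean log2 difference was 1.76 (SD 0.75, n = 3) for LAMA4 and 1.79 (SD 0.22, n = 3) for LAMB1, higher in 3 of 3 cats each. LAMB1 was the more even, at 2.02, 1.57 and 1.79, against 2.63, 1.32 and 1.34 for LAMA4. The gamma-3 chain gene LAMC3 differed less evenly, by 1.04, 1.86 and 0.30.

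NID2 was at 9.80, 2.37 and 2.39 FPKM in healthy mucosa and 27.4, 9.04 and 7.08 FPKM in lesions, a mean difference of 1.66 (SD 0.24, n = 3). NID1 was at 18.6, 13.9 and 18.8 FPKM and 62.3, 21.6 and 30.5 FPKM, a mean difference of 1.03 (SD 0.62, n = 3). NID1 was the more abundant of the 2 nidogens in every library and differed less between tissues. In the healthy mucosa of Jerome and Sadie it was at 5.88 and 7.86 times the level of NID2, and in their lesions at 2.39 and 4.31 times. In Bart the ratio was 1.898 in healthy mucosa and 2.27 in the lesion, so its direction was not shared by the 3 cats.

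In 4 families a relative of a higher gene was lower. COL4A5, a chain of other collagen IV networks, was at 13.8, 2.27 and 1.82 FPKM in healthy mucosa and 0.97, 1.81 and 0.90 FPKM in lesions. Of its lesion values 2 lay under the floor of 1 FPKM, and the differences were -3.78, -0.33 and -0.86. In Bart it was thus lower while COL4A1 was 6.14-fold higher in the same lesion. LAMA3, the alpha-3 chain of epithelial laminin-332, was at 12.5, 9.45 and 9.68 FPKM in healthy mucosa and 2.55, 7.03 and 2.62 FPKM in lesions. It was lower in 3 of 3 cats (-2.30, -0.43 and -1.89), and the tissues did not overlap.

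LAMB3, the beta-3 chain that pairs with LAMA3, showed the widest spread of the 45 genes. It was at 44.6, 23.7 and 21.7 FPKM in healthy mucosa and 0.98, 35.6 and 12.8 FPKM in lesions. Relative to healthy mucosa it was lower in Bart (-5.48) and Sadie (-0.77) but higher in Jerome (0.59), for a mean of -1.89 (SD 3.18, n = 3). Its mean therefore rests on Bart, without whose pair it was -0.09.

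Hyaluronan, the large sugar polymer of the matrix, is made at the cell surface by hyaluronan synthases. HAS2, the synthase best known from fibroblasts, was low throughout, at 4.34, 1.09 and 0.49 FPKM in healthy mucosa and 11.3, 1.84 and 2.33 FPKM in lesions, and higher in 3 of 3 cats with a mean of 1.12 (SD 0.32, n = 3). HAS3, which is prominent in epithelia, was at 60.2, 13.4 and 4.31 FPKM and 4.02, 11.4 and 8.85 FPKM. It differed by -3.91, -0.22 and 1.04, lower in Bart, near 0 in Jerome and higher in Sadie. Without the pair of Bart the mean of HAS3 was 0.41, the opposite direction. The level of HAS3 thus exceeded that of HAS2 in 5 of the 6 libraries, and in the lesion of Bart HAS2 exceeded HAS3.

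**Figure D3:**
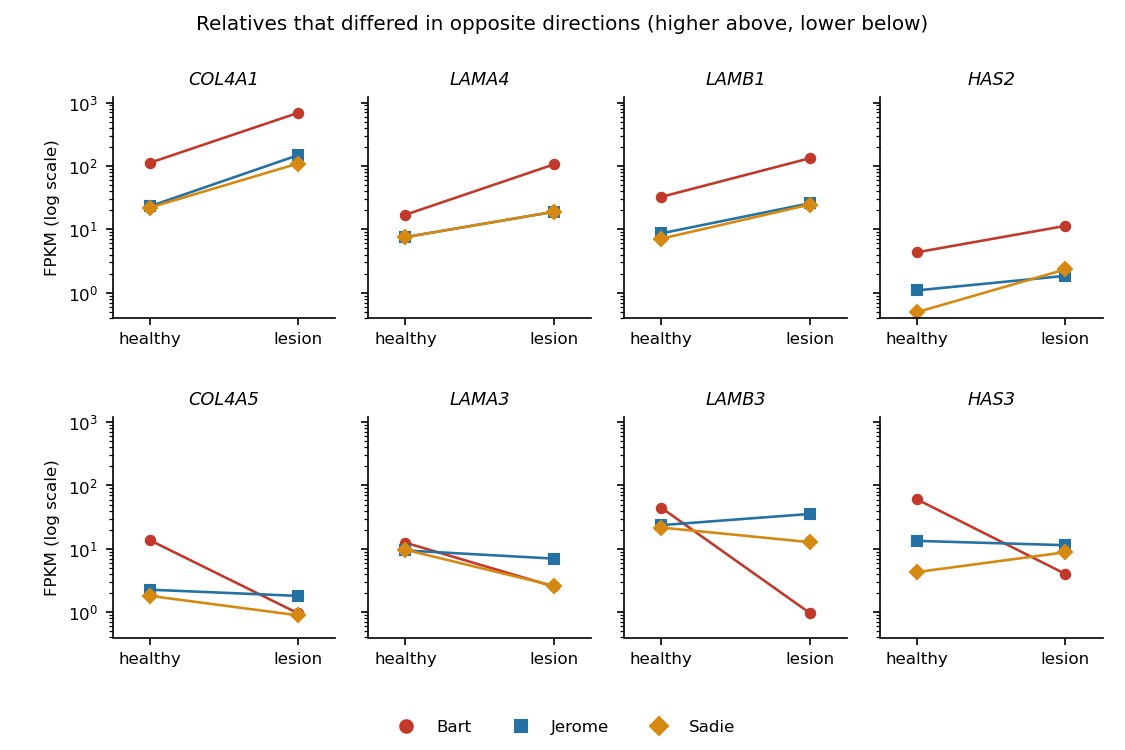
FPKM on a log scale in healthy mucosa and lesion of each cat for 4 genes that were higher in lesions (upper row) and a relative of each that was lower (lower row). The upper lines all rise from left to right, whereas in the lower row Bart drops steeply for COL4A5, LAMB3 and HAS3 and the lines of the other cats are flatter or rise.

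Genes of the epithelium were read beside these relatives. KRT4, a keratin of the upper layers of oral epithelium and the 1 of 12 epithelial markers with a name, was at 2089 FPKM in healthy mucosa of Bart, 8.995 FPKM in the lesion of Bart, 2534 FPKM in the lesion of Jerome and 569 FPKM in the lesion of Sadie. It was listed at 0 in the healthy mucosa of Jerome and Sadie, which can be a failed estimate, although the deposited status of these values was OK. COL17A1, the hemidesmosomal collagen of basal keratinocytes, was at 504, 222 and 240.4 FPKM in healthy mucosa and 51.4, 114 and 42.7 FPKM in lesions, and LAMB4 at 6.65, 9.24 and 3.51 FPKM and 0.14, 1.73 and 0.08 FPKM. COL17A1 and LAMB4 were thus low in the lesion of Sadie as well as in that of Bart, and lowest in Sadie. The part of epithelium in the lower matrix genes was not tested.

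Collagen VI forms beaded microfibrils around cells and between fibrils. COL6A1 was at 245, 118 and 130.4 FPKM in healthy mucosa and 979, 215 and 269.6 FPKM in lesions, and COL6A2 at 234, 107 and 109 FPKM and 1047, 217 and 240.2 FPKM. COL6A3, the longest chain of the trimer, was at 47.6, 20.5 and 17.2 FPKM and 346, 64.9 and 65.3 FPKM. All 3 were higher in 3 of 3 cats, with means of 1.30 (SD 0.61, n = 3), 1.44 (SD 0.63, n = 3) and 2.15 (SD 0.63, n = 3). COL6A2 was the most abundant matrix gene of the 45 in the lesion of Bart. The lesion of Jerome held less COL6A1 and COL6A2 than the healthy mucosa of Bart, whereas the tissues did not overlap for COL6A3.

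Chains that share a molecule kept different degrees of balance. COL4A1 and COL4A2, whose genes lie side by side and are transcribed in opposite directions, kept a ratio of 0.90 to 1.08 over the 6 libraries although COL4A1 itself ranged 31.3-fold. COL6A1 and COL6A2, whose genes are neighbours too, kept 0.94 to 1.19. COL6A3 stood at 0.20, 0.19 and 0.16 of COL6A2 in healthy mucosa and at 0.33, 0.30 and 0.27 in lesions, so its share was higher in each lesion. The ratio of LAMA4 to LAMB1 was 0.52, 0.87 and 1.05 in healthy mucosa and 0.80, 0.73 and 0.77 in lesions. LAMA3 was at 0.28, 0.40 and 0.45 of LAMB3 in healthy mucosa and at 0.20 and 0.21 in the lesions of Jerome and Sadie, with no ratio for the lesion of Bart, where LAMB3 was under 1 FPKM. These ratios are a description, with no test, and each rests on the transcript lengths that the authors' software used.

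**Figure D4:**
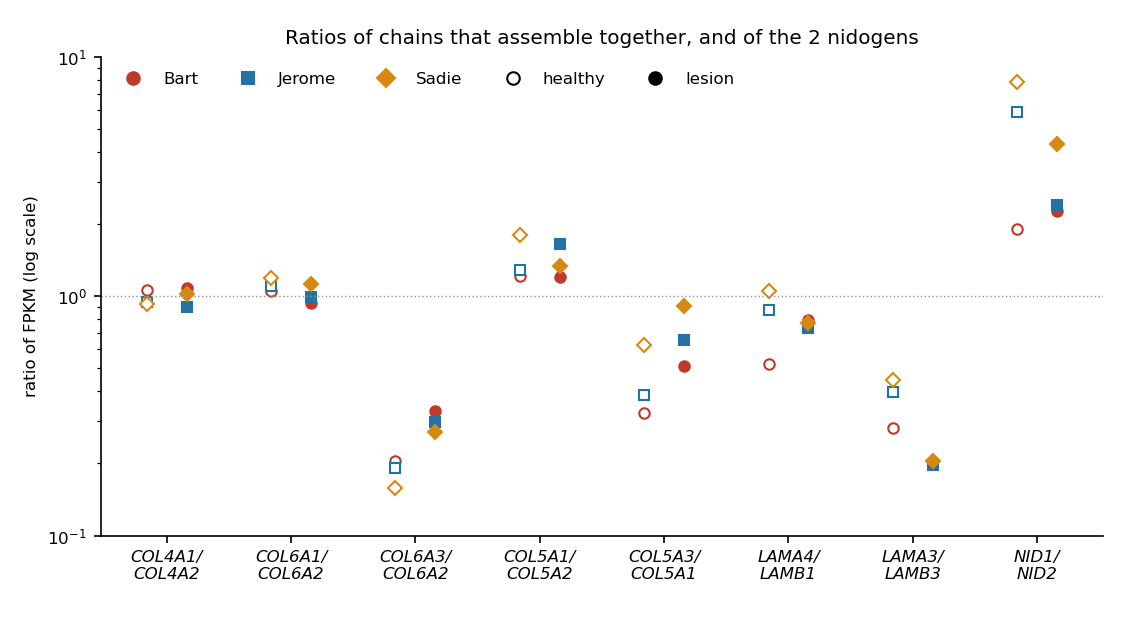
Ratio of the FPKM of a gene to that of a partner (log scale) in each library, open symbols for healthy mucosa and filled ones for lesions, shaped and coloured by cat. The COL4A1 to COL4A2 ratio stays between 0.90 and 1.08, while COL6A3 to COL6A2 and COL5A3 to COL5A1 are higher in the lesion of each cat.

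Among fibrillar collagens, collagen V chains regulate the width of collagen I fibrils. COL5A1 was at 43.5, 13.1 and 14.7 FPKM in healthy mucosa and 145, 28.4 and 23.1 FPKM in lesions, and COL5A2 at 36.0, 10.2 and 8.12 FPKM and 121, 17.2 and 17.2 FPKM. COL5A3, the rarer chain, was at 14.1, 5.06 and 9.18 FPKM and 74.0, 18.7 and 20.9 FPKM. Mean differences were 1.17 (SD 0.54, n = 3), 1.19 (SD 0.51, n = 3) and 1.82 (SD 0.60, n = 3), each higher in 3 of 3 cats. The ratio of COL5A3 to COL5A1 was 0.33, 0.38 and 0.63 in healthy mucosa and 0.51, 0.66 and 0.91 in lesions. COL5A1 to COL5A2 ran from 1.20 to 1.81 with no shared direction. COL27A1, another fibrillar collagen, differed by 0.53, 1.78 and 1.09. The fibrillar collagens I, II and III carry no name here and were not analysed.

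The 5 less common collagens diverged. COL28A1, a collagen best known from peripheral nerve, was near or under 1 FPKM in healthy mucosa (0.77, 0.77 and 1.15 FPKM) and at 12.5, 3.92 and 4.67 FPKM in lesions. COL13A1, a transmembrane collagen of cell adhesion sites, was at 3.04, 1.57 and 0.74 FPKM and 13.5, 6.47 and 3.31 FPKM, with even differences of 2.16, 2.04 and 1.73. COL26A1 was the reverse, at 2.50, 6.04 and 4.80 FPKM in healthy mucosa and 0.47, 2.25 and 0.06 FPKM in lesions. It was lower by at least 2-fold in 3 of 3 cats, with a mean of -1.67 (SD 0.52, n = 3) and 2 lesion values under the floor. The transmembrane COL23A1 differed by -0.68, 2.72 and 2.17, and the fibril-associated COL14A1 by 1.66, -0.28 and 1.79, so each had 1 cat against the others.

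Matricellular proteins modulate how cells meet the matrix without forming its scaffold. THBS1, thrombospondin-1, an activator of latent TGF-beta and inhibitor of vessel growth, had the largest mean difference of the 45 genes. It was at 32.8, 6.51 and 1.58 FPKM in healthy mucosa and 515, 29.8 and 24.1 FPKM in lesions, 3.37 (SD 1.02, n = 3) or 10.3-fold higher. The healthy mucosa of Bart exceeded the lesions of Jerome and Sadie. Without the lesion of Bart alone, which keeps this high healthy value, the difference was 1.95, below COL28A1 (2.03) and COL23A1 (2.005). Without both libraries of Bart it was 3.065, still the largest of the 45, with COL8A1 next at 3.004. TNC, tenascin-C, which is typical of wounds and inflamed stroma, was at 23.9, 2.33 and 3.42 FPKM and 109, 34.6 and 11.4 FPKM, with differences of 2.19, 3.89 and 1.74. THBS2 was at 60.3, 7.72 and 13.6 FPKM and 127, 31.1 and 25.6 FPKM, a mean of 1.33 (SD 0.60, n = 3).

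SPARCL1 and TNXB differed chiefly in 1 cat. SPARCL1, a SPARC relative of vessel walls, differed by 3.43, 0.44 and -0.31, and TNXB, tenascin-X, by 2.83, 0.02 and 0.16. Without the pair of Bart their means were 0.07 and 0.09. Other higher genes, among them NID1 (0.67), FBLN5 (0.67) and ECM2 (0.70), also fell under 2-fold without that pair. THBS4, which was excepted from the choice, was at 8.34, 7.92 and 1.28 FPKM in healthy mucosa and 58.9, 40.4 and 21.9 FPKM in lesions.

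Fibrillin-1, encoded by FBN1, forms the microfibrils on which elastic fibres are laid, and fibulins help to organise them. FBN1 was at 17.5, 7.19 and 6.44 FPKM in healthy mucosa and 102, 15.2 and 21.2 FPKM in lesions, a mean of 1.78 (SD 0.73, n = 3). FBLN2 was at 28.6, 24.8 and 29.6 FPKM and 201, 63.9 and 58.1 FPKM, and FBLN5 at 15.2, 21.0 and 31.5 FPKM and 56.3, 32.2 and 52.3 FPKM. Both fibulins were higher in 3 of 3 cats with tissues that did not overlap, FBLN5 only narrowly, since its highest healthy value (Sadie) lay just below its lowest lesion value (Jerome).

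Among leucine-rich repeat proteins, which bind and space collagen fibrils, biglycan (BGN) was at 119.5, 92.6 and 115 FPKM in healthy mucosa and 994, 235 and 239 FPKM in lesions. Lumican (LUM) was at 107, 71.4 and 35.6 FPKM and 400.3, 135 and 160.4 FPKM, and the less abundant ECM2 at 8.22, 5.87 and 6.03 FPKM and 29.3, 8.68 and 10.8 FPKM. None of the 3 overlapped between tissues. BGN was almost level across the healthy libraries and 8.32-fold higher in the lesion of Bart, against 2.54-fold and 2.08-fold in those of Jerome and Sadie.

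All 7 genes for enzymes that modify collagen were higher in lesions in 3 of 3 cats. LOXL2, a lysyl oxidase-like enzyme that cross-links collagen IV, was at 14.9, 2.45 and 3.58 FPKM in healthy mucosa and 70.7, 21.0 and 13.8 FPKM in lesions. LOXL1, whose enzyme acts on elastin, was at 13.3, 2.52 and 4.05 FPKM and 58.4, 15.4 and 14.1 FPKM. The mean differences were 2.43 (SD 0.60, n = 3) and 2.18 (SD 0.41, n = 3). LOXL3 and LOXL4 differed by 2.06, 1.14 and 1.24 and by 2.40, 1.39 and 0.53.

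PLOD3, a lysyl hydroxylase that also adds glucose to collagen, was the most even gene of the 45. It was at 20.1, 20.3 and 15.2 FPKM in healthy mucosa and 70.5, 66.2 and 53.6 FPKM in lesions, a mean of 1.78 (SD 0.06, n = 3) or 3.43-fold. PLOD1, another lysyl hydroxylase, differed almost as evenly, by 1.39, 1.39 and 1.13. P4HA3, a prolyl hydroxylase subunit, was low in the healthy mucosa of Jerome and Sadie (under 1 FPKM) and at 12.7 FPKM in that of Bart, and differed by 0.59, 2.06 and 1.57.

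Genes that mature collagen or receive it were counted from lists that do not overlap the 45. Of 21 genes of collagen folding and processing, 6 had a name, all higher in lesions. With tissue as the only term 1 of the 6 passed limma, and with the cat as a block 5 passed, beside 5.31% and 12.2% of all tested identifiers called higher. These 6 carry a name because the same contrast put them past the 2-fold limit, so nothing is read from the count. The 1 that passed, ADAMTS14, a procollagen N-proteinase, was at 0.84, 1.32 and 0.44 FPKM in healthy mucosa and 6.65, 4.73 and 2.65 FPKM in lesions. PCOLCE, an enhancer of procollagen cleavage, differed by 1.92, 0.76 and 1.08, and the collagen chaperone FKBP10 by 2.07, 1.26 and 1.65. ADAMTS2, a related N-proteinase, differed by 2.04, 1.37 and 2.69.

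Of 31 receptors and co-receptors of the matrix, 10 had a name, 8 higher and 2 lower. With tissue as the only term 3 passed limma as higher and 0 as lower, and with the block 6 and 0, while all tested identifiers had 5.31% and 6.61% with tissue only and 12.2% and 11.1% with the block. Both lower receptors had an unadjusted p under 0.05 in either fit. The integrin chains ITGA4 (1.91, 2.06 and 2.63), ITGB7 (2.15, 1.60 and 1.65) and ITGA5 (2.24, 1.56 and 1.64) passed. ITGA4 and ITGB7 form an integrin of leukocytes, and ITGA5 a chain of the fibronectin receptor. ITGA7, a laminin receptor chain, differed by 2.98, 1.79 and 1.00. The 2 lower receptors, chosen for mention after their values were seen, were the syndecan SDC1 (-3.03, -0.81 and -1.25) and the collagen receptor DDR1 (-3.87, -0.89 and -1.41). Both were lowest in the lesion of Bart, as was LAMB3. All 10 were named through the same 2-fold contrast, so the counts describe the named genes and not the list, and nothing is read from them.

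The level of a gene in a cat, over both tissues, is not the contrast that chose the genes, but it comes from the same 6 libraries. The lesion of Bart, the highest of the 6 libraries for 37 of the 39 higher genes, entered both the choice and the level of Bart, so the counts that follow are not independent of the choice and are given as a description. The 39 higher genes were at higher levels in Bart than in Jerome for 37 and than in Sadie for 36, with median log2 differences of 1.79 and 1.82. Over all tested identifiers the medians were -0.03 and -0.06. Between Jerome and Sadie, 20 of the 39 were higher in Jerome and the median was 0.00. Both libraries of Bart were the highest of their tissue for 29 of the 39 and for 0 of the 6 lower genes, against 24.9% of all tested identifiers.

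With limma's F test of the cat, adjusted over all tested identifiers, 0 of the 45 passed, against 0.0075% (1 identifier) of all. At an unadjusted p under 0.05 there were 25 of the 45, all among the 39 higher genes and with Bart above both other cats in each, against 20.7% of all tested identifiers. With the floor of 1 FPKM, the widest gaps were those of THBS1, at 3.22 (SE 0.53) above Jerome and 4.40 (SE 0.53) above Sadie, COL8A1 at 3.10 and 3.90 (SE 0.64 each) and P4HA3 at 2.93 and 3.18 (SE 0.43 each). The healthy values of COL8A1 and P4HA3 in Jerome and Sadie lay under the floor, so their gaps are understated and the order of the 3 genes depends on it. COL4A1 lay 2.25 and 2.50 above (SE 0.19 each) and HAS2 2.31 and 2.20 (SE 0.29 each).

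The gap was small or reversed for PLOD3, LOXL3, LOXL4, FBLN5, COL23A1 and TNXB. PLOD3 differed between Bart and the other cats by 0.04 and 0.39 (SE 0.17 each), LOXL3 by 0.36 and 0.32 (SE 0.32 each), and FBLN5 by 0.17 and -0.47 (SE 0.38 each). COL23A1 differed by -0.61 and 0.13 (SE 0.93 each). TNXB was lowest in Bart over both tissues, by -0.41 and -1.82 (SE 0.80 each). It was lowest there in healthy mucosa (2.62, 9.18 and 23.2 FPKM) but not in lesions (18.6, 9.34 and 25.9 FPKM). In the healthy mucosa alone, Bart stood above at least 1 lesion of the other cats for 18 of the 39. Animal, biopsy and library share 1 label, so a difference of the cat, of the site sampled and of the library cannot be told apart. The leukocyte sum, much of it CD79A in lesions, was lowest in Bart in both tissues, and the fibroblast and endothelial sums were highest in the lesion of Bart. Single leukocyte markers did not all follow their sum in lesions. PTPRC was highest in Bart (18.24, 16.62 and 17.85 FPKM) and ITGB2 lay between the other cats (151.3, 153.6 and 132.9 FPKM). The other leukocyte markers were lowest in the lesion of Bart. Skeletal muscle markers set Bart apart from both other cats in lesions only. In healthy mucosa their sum was low in Jerome too (9.98 FPKM, beside 2.62 in Bart and 2136 in Sadie). The part of these cell types in the split between cats was not tested.

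**Figure D5:**
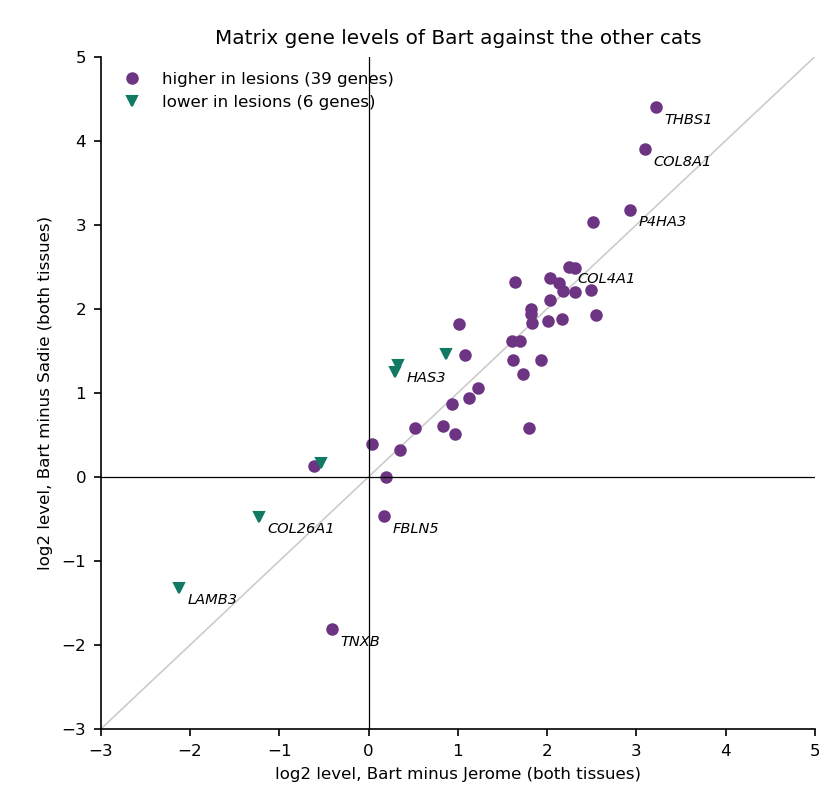
Log2 level of each matrix gene in Bart minus Jerome (horizontal axis) and Bart minus Sadie (vertical axis), averaged over lesion and healthy mucosa, for the 39 higher and 6 lower genes; the grey diagonal marks equal gaps. Most higher genes lie in the upper right, with THBS1 farthest at 3.22 and 4.40, while TNXB, LAMB3 and COL26A1 lie at the lower left.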

How the data were processed

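RNA of 6 biopsies, 1 FCGS lesion and 1 adjacent healthy site from each of 3 cats, was sequenced from stranded poly(A) libraries. The authors deposited FPKM values per library, made with Cuffnorm. The submitters' processing notes also name bcl2fastq, HISAT and Cufflinks, without versions. For the genome build nothing was given in the sources used here. Read totals are absent from the tables, so the depth is unknown and no counting interval is given. Values under 0.1 FPKM took steps that point to whole reads (6.9% to 30.1% of low genes at 1 common ratio per pair of libraries), but without gene lengths the reads were not recovered.

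Identifiers carry no symbols in the files. The names of 1929 of them came from a list of the study, whose tissue values matched exactly 1 identifier each to 5 significant digits. This list holds genes at least 2-fold different, and a further part of it, with the strongest falls, was not used here, so no named gene was lower by more than 5.20-fold. The members and lists were chosen with earlier results of these data known. All 45 symbols were found in the RefSeq gene table of the cat (F.catus_Fca126_mat1.0), used only to find neighbours. No sequences were at hand for a description of proteins or promoters.

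Values were floored at 1 FPKM and put on a log2 scale. The 13327 identifiers that reached 1 FPKM in 3 or more libraries entered a two-sided limma test (limma 3.58.1, R 4.3.3), whose variance followed a trend with the mean and whose p-values were adjusted by Benjamini-Hochberg. Tissue was the only term of the first fit. An F test of the cat on 2 degrees of freedom came from a fit with tissue and cat. The steps were tested on simulated data. Values in every library are given for all lower genes, all genes of the ratios and families, and the 3 genes of each role with the largest difference. Of the genes outside the 45, up to 4 per list were to be named. SDC1 and DDR1 came on top of 4 receptors, after their values were seen. The leukocyte markers CD79A, PTPRC and ITGB2 were likewise chosen by their values.

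The pairing by cat comes from the labels. Across genes, the departures of a cat's 2 libraries from their tissue means correlated at 0.49 (Bart), 0.20 (Jerome) and 0.41 (Sadie), against -0.44 to 0.27 for libraries of different cats. The highest of the latter, lesion of Jerome with healthy mucosa of Sadie, exceeded the value of Jerome's own pair, so the pairing rests on the labels. Counts that move when the cat is added as a block are given both ways. Alternatives were pseudocounts of 1 and 0.1 FPKM in place of the floor, median centring, quantile normalization, no filter, and leaving out each library or cat. Tables and figures used Python with pandas 2.3.3, numpy 2.4.6 and matplotlib 3.10.9.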

Additional observations from a re-analysis of the deposited data

How the results depend on the processing

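With 3 cats and no read counts, precision rests on the spread between animals. The counts of genes at least 2-fold different stayed within 1.5 times of 39 higher and 6 lower under both pseudocounts (32 to 38 and 5 to 6), median centring and quantile normalization. Dropping the filter or adding the block cannot move a gene's own difference in this balanced design. Leaving out 1 library or both libraries of a cat gave 21 to 38 higher and 3 to 6 lower, with the lowest values when the lesion of Bart (21) or the healthy mucosa of Bart or its pair (3) was left out. Counts of limma calls were less stable. Against 4 higher and 0 lower, the replicate block gave 26 and 1, and leaving out a library or cat gave 0 to 20 and 0 to 1. The 20 came without the cat Bart (33 at an unadjusted p under 0.05), and 0 without the healthy mucosa of Jerome or of Sadie, the lesion of Sadie, or the pair of Jerome or of Sadie (6 to 18 unadjusted). The count was 2 without the healthy mucosa of Bart and 2 without the lesion of Jerome, which also gave the 1 lower call. The cause was not tested. Between cats, limma's F test called 0 of the 45 under each alternative run (24 to 31 at an unadjusted p under 0.05). Alternatives that can move a gene's own difference gave 585 values. Of these, 515 moved by less than the SD between cats and 69 by more in the same direction. The 1 reversal was HAS3, at 0.41 without the pair of Bart and at -2.06 without that of Sadie. Leaving out a cat's pair cannot shift a mean of 3 differences by as much as their SD. Those settings add to the 515 by construction and could only show a change of sign.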
